A study of Homo sapiens with 3 samples.

Results

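The 10 genes described here run the decision of a cell to leave G1 and copy its DNA. They are the 3 D-type cyclins (CCND1, CCND2 and CCND3), the 2 kinases these cyclins activate (CDK4 and CDK6), 4 inhibitors of cyclin-dependent kinases (CDKN1B, CDKN1C, CDKN2B and CDKN2C) and the retinoblastoma gene RB1. The members were taken by name and not by a cut on their values, though earlier results of these data were known. Every probe whose RefSeq accession belongs to 1 of them was used. They made up 10 of the 22430 genes that could be named and 11 of the 58201 probes on each array. CDKN1B had 2 probes and each of the other 9 genes had 1, while the probes of CCND1 and RB1 were printed in 10 spots each.

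The cells were TK-10, a human renal carcinoma line, and 3 single-colour Agilent arrays were hybridised, 1 per condition. All cells were labelled as treated for 48 h in DMEM with antibiotics (penicillin-streptomycin, 1%) and fetal bovine serum (10%). The labels add zinc sulfate (16.7 μM), troglitazone (10 μM) and nicotinamide (10 mM) to this medium, so the control shared these agents with both treatments. The vehicle array came from cells given 0.1% DMSO, the cordyceps array from cells labelled with 750 μg/mL cordyceps, and the sunitinib array from cells given 10 μM sunitinib, an inhibitor of receptor tyrosine kinases. The study's methods name the first agent as cordycepin, an adenosine analogue, at another dose, so the array is called here by its label. The design asked how each agent changed the transcripts of these cells relative to vehicle. With 1 array per condition there was no replicate check and no test was possible, and both comparisons share the vehicle array.

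D-type cyclins are made when growth factors reach a cell, and they bind CDK4 or CDK6. The active kinases phosphorylate the retinoblastoma protein, which then releases E2F factors that switch on the genes of DNA synthesis. The INK4 inhibitors (p15, encoded by CDKN2B, and p18, encoded by CDKN2C) block CDK4 and CDK6 alone, whereas the CIP/KIP inhibitors (p27, encoded by CDKN1B, and p57, encoded by CDKN1C) act mostly on the later cyclin E and cyclin A kinases.

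Signals are given in the array's intensity units, after the background subtraction of the scanner software. Ratios are the difference of log2 signals, each taken relative to the 75th percentile of its own array. That percentile was 164.6 on the vehicle array, 137.9 on the cordyceps array and 78.2 on the sunitinib array, so a raw signal that fell in parallel with the percentile gives a ratio of 0. Between 37.8% and 45.5% of probes were well above background, the scanner software's call of a spot brighter than its surroundings, and the lowest such signal was between 18.2 and 30.2. The only error the arrays carry for a single probe is the software's own estimate for its spots. For most of the 10 genes the 95% limit of a ratio from this estimate was about 0.40 on the log2 scale, and it does not hold the spread between cultures. A bright streak covered 562 spots of the cordyceps array, and 0 spots of the 10 genes lay in it. Of 10 kidney and renal carcinoma markers, 9 were well above background on every array, CA9 being the exception. Of 9 leukocyte, endothelial and fibroblast markers, 7, 6 and 5 were well above background on the vehicle, cordyceps and sunitinib arrays, with CD3E and PECAM1 on no array. Their summed signal was 2732, 1337 and 839, beside 412550, 284206 and 244521 for the kidney list, and its part in the ratios below was not tested.

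All 10 genes were well above background on the vehicle array, and 9 were so on all 3 arrays, the exception being CDKN2C on the cordyceps array. In sunitinib over vehicle, CDKN1C was the 1 gene past 2-fold upward and CCND1 the 1 gene past it downward. The background among the 14894 genes compared there was 6.44% upward and 6.52% downward, 13% in all, so 1 of 10 in each direction lay near the background. In cordyceps over vehicle, 0 of the 10 genes passed 2-fold in either direction, beside 5.75% of 14775 genes, of which 2.99% were higher and 2.76% lower. The median log2 ratio of the 10 genes was -0.45 for sunitinib and -0.04 for cordyceps. The median of all genes compared was 0 in both, with quartiles of -0.37 and 0.36 for sunitinib and -0.25 and 0.24 for cordyceps.

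**Figure D1:**
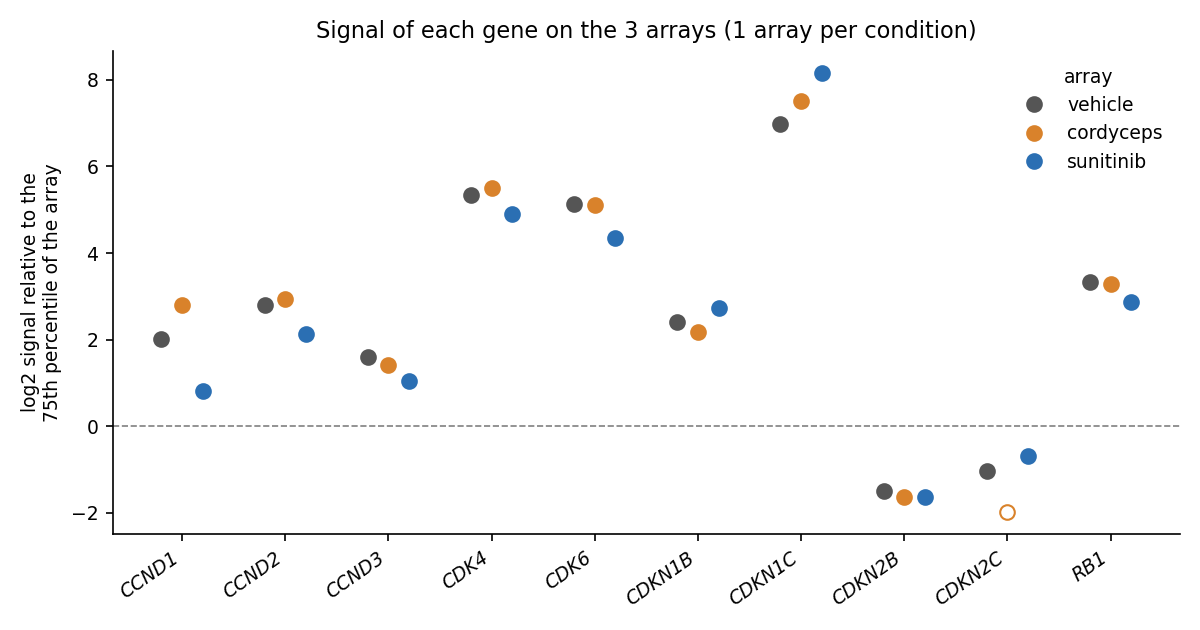
Log2 signal of each gene relative to the 75th percentile of the array (vertical axis) on the vehicle, cordyceps and sunitinib arrays. Each point is 1 probe on 1 array, the open point was not well above background, and levels of different genes come from different probes and cannot be ranked. CDKN1C was highest on the sunitinib array, and CCND1 was lowest there.

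CCND1 encodes cyclin D1, the D-type cyclin most often amplified in human tumours. Its signal was 664 on the vehicle array, 968 on the cordyceps array and 139 on the sunitinib array. It was the member farthest below vehicle under sunitinib and the member farthest above it under cordyceps. The log2 ratio was -1.19 (2.27-fold lower) for sunitinib, where 4.61% of the genes compared lay lower, and 0.80 (1.74-fold higher) for cordyceps, where 4.81% lay higher.

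The repeated spots of the CCND1 probe give its spread within an array. Without the spots marked as outliers, the 9 vehicle spots lay between 648 and 681 (SD 13.8), the 10 cordyceps spots between 927 and 1019 (SD 30.4) and the 9 sunitinib spots between 127 and 159 (SD 10.4). The spots of the 3 arrays did not overlap, before or after scaling. Combined from both arrays, the spot SD of the log2 ratio was 0.05 for cordyceps and 0.11 for sunitinib, while the software limits were 0.40 and 0.41. Spots of 1 hybridisation are technical repeats, so this spread says nothing of the spread between cultures.

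CCND2 encodes cyclin D2, and its signal was 1148 on the vehicle array, 1056 on the cordyceps array and 340 on the sunitinib array. The log2 ratio was -0.68 for sunitinib and 0.13 for cordyceps, the first past its software limit of 0.40 and the second within it. CCND3 encodes cyclin D3, and its signal was 503 with vehicle, 366 with cordyceps and 162 with sunitinib. Its log2 ratio was -0.56 for sunitinib, past the limit of 0.41, and -0.20 for cordyceps, within it. The 3 D-type cyclins were thus all lower on the sunitinib array than on the vehicle array.

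A difference between the log2 ratios of 2 genes is free of how the arrays were scaled, if the scaling is 1 factor per array. In cordyceps over vehicle, CCND1 exceeded CCND2 by 0.67 and CCND3 by 1.00, past limits of 0.57. In sunitinib over vehicle, CCND1 lay below CCND3 by a difference of -0.63, past its limit of 0.58. Its difference from CCND2 was -0.50, within a limit of 0.57, so the order of CCND1 and CCND2 there was not resolved. CCND2 less CCND3 was -0.12, also within a limit of 0.57.

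**Figure D2:**
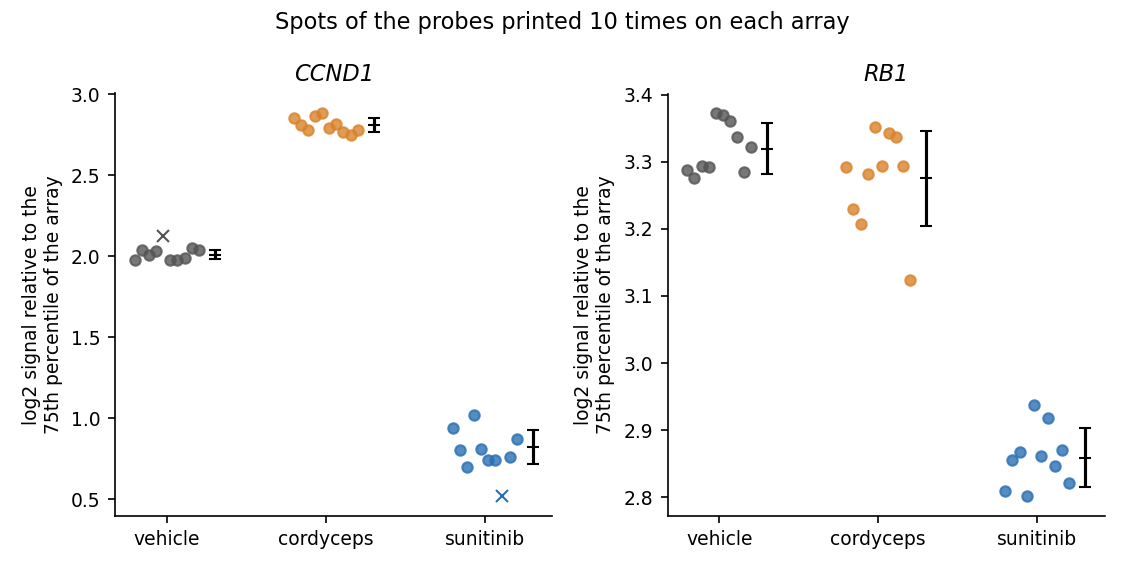
Log2 signal relative to the 75th percentile of the array (vertical axis) for the 10 printed spots of the CCND1 probe (left) and of the RB1 probe (right). Points are spots, crosses are spots marked as outliers and left out, and bars give mean and SD over the other spots. The CCND1 spots of the 3 arrays form separate bands, while the RB1 spots of the vehicle and cordyceps arrays overlap and those of the sunitinib array lie lower.

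CDK4 and CDK6 encode the catalytic partners of the D-type cyclins. The signal of CDK4 was 6691 on the vehicle array, 6200 on the cordyceps array and 2348 on the sunitinib array. The signal of CDK6 was 5743, 4720 and 1601 on the same arrays. Both were lower relative to the rest of the sunitinib array, with log2 ratios of -0.44 for CDK4 and -0.77 for CDK6, each past a software limit of 0.40. The difference between these ratios, 0.33, lay within its limit of 0.57. Under cordyceps neither kinase passed its limit, at 0.15 for CDK4 and -0.03 for CDK6.

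The promoters of the 2 kinases and of CDKN1B are shown because the log2 ratios of the kinases and of this inhibitor differed from each other under sunitinib, as given below. Each is the 250 bases before a transcript start from RefSeq (GRCh38.p14), written 5′ to 3′ on the gene's strand. CDK4 lies at chr12:57752311-57752560 (minus strand), and its capitals mark CACGTG, the E-box that MYC and related factors bind. CDK6 lies at chr7:92836574-92836823 (minus strand, the outermost of the 2 starts in the table), and its capitals mark the GC box GGGCGG on either strand. CDKN1B lies at chr12:12717118-12717367 (plus strand), and its capitals mark CCAAT and the GC box.
CDK4: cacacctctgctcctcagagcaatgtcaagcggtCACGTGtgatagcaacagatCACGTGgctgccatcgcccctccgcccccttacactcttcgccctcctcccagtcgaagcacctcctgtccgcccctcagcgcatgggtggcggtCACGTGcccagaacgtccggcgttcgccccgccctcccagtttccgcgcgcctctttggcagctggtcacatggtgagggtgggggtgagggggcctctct
CDK6: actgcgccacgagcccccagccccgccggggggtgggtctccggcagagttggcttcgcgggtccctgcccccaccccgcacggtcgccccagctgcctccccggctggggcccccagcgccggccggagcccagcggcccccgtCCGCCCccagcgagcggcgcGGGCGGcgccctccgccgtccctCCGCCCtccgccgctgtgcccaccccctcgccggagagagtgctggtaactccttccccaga
CDKN1B: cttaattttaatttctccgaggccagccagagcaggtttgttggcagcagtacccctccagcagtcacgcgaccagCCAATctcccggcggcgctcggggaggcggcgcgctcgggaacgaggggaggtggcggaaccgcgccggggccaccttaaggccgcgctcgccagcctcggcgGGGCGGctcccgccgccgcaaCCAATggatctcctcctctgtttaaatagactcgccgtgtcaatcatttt
The CDK4 window held 3 E-boxes, 216, 196 and 101 bases before the start, and also 3 GC boxes left in lower case. Of 35116 windows of the same length in the table, 6.34% held at least 1 E-box and 0.0797% held 3 or more. The CDK6 window held 3 GC boxes and the CDKN1B window 1 GC box and 2 CCAAT boxes, with 42.6% of all windows holding at least 1 GC box and 13.9% holding 3 or more. CCAAT was in 32.0% of the windows, and 9.53% held it more than once. The letters TTTCCCGC, TTTGGCGC and TTTCGCGC, forms of the E2F site that 2.32% of windows held, were in none of these 3 windows on either strand. TGTTTAC, a FOXO site that 2.98% of windows held, was likewise in none of the 3. No motif searched overlapped another in the 3 windows, and a match is a description of the letters only.

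CDKN1C encodes p57, a growth-restraining inhibitor of the CIP/KIP family whose gene is imprinted. It had a signal of 20679 for vehicle, 25200 for cordyceps and 22399 for sunitinib. Its raw signal was thus nearly level between vehicle and sunitinib (a ratio of 1.08) while the 75th percentile of the array fell from 164.6 to 78.2. The log2 ratio was 1.19 (2.28-fold higher) for sunitinib, where 4.48% of the genes compared lay higher, and 0.54 (1.45-fold higher) for cordyceps. Both passed the software limit of 0.40, though with no scaling the cordyceps ratio was 0.29, within that limit.

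How far CDKN1C stood above vehicle under sunitinib depended on the scaling. It stayed above 0 under all 12 alternatives that give a ratio, between 0.12 and 1.19, but it fell short of 2-fold under 5 of them. The measured genes closest to it in brightness had a median log2 ratio of 0.17 and quartiles of -0.18 and 0.48. Less that median, CDKN1C stood at 1.02, and with a running median whose window narrows for the brightest genes it stood at 0.90.

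CDKN1B encodes p27, which holds cyclin E and CDK2 in check and is removed by ubiquitination as cells enter S phase. Its brighter probe gave 875 on the vehicle array, 626 on the cordyceps array and 521 on the sunitinib array. The log2 ratios were 0.33 for sunitinib and -0.23 for cordyceps, both within the limit of 0.40. The second probe gave 575, 464 and 323, with ratios of 0.24 and -0.05, so both probes gave the same sign in each comparison and no value past the limit. With each array scaled to its median, the sunitinib ratio of the brighter probe was -0.004. With no scaling it was -0.75, past the limit, so the sign depended on the scaling.

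Set against the kinases, CDKN1B stood higher under sunitinib whatever linear factor was used. Its log2 ratio of 0.33 exceeded that of CDK4 by 0.76, past a limit of 0.57, and that of CDK6, at -0.77, by still more. The difference between CDKN1C and CCND1 was 2.37, also past its limit of 0.57. In cordyceps over vehicle the difference was -0.37 for CDKN1B less CDK4, -0.20 for CDKN1B less CDK6 and -0.26 for CDKN1C less CCND1, all within the limits. CDKN1C exceeded CDKN1B in both comparisons, by 0.86 for sunitinib and 0.77 for cordyceps, past limits of 0.57. This holds for 1 factor per array. With quantile normalization, which is not 1 factor per array, the sunitinib ratios lay closer together, at 0.87 for CDKN1C and 0.35 for CDKN1B.

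CDKN2B, the p15 gene that TGF-beta induces in epithelial cells, gave a dim signal of 58.2 for vehicle, 44.8 for cordyceps and 25.1 for sunitinib. These values were only 3.20, 1.48 and 1.37 times the lowest signal well above background on their arrays. The log2 ratios of -0.14 for sunitinib and -0.12 for cordyceps lay within limits of 0.62 and 0.59, so no difference was detectable at this brightness.

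CDKN2C encodes p18, and its signal was 80.7 on the vehicle array, 35.1 on the cordyceps array, where it was not well above background, and 48.8 on the sunitinib array. On the cordyceps array it was 1.93-fold lower, a log2 ratio of -0.95 with a software limit of 0.79. The dim signal lay above the floor of 30.2 and was kept. This value is thus the ratio of a dim spot and not a lower limit of the fold. Under sunitinib its ratio was 0.35, within a limit of 0.53. Its ratio for cordyceps ranged from -1.20 to -0.26 over 11 alternatives and was the value most open to the processing among the cordyceps ratios.

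RB1 encodes the protein that the D-type kinases phosphorylate. Its signal was 1644 on the vehicle array, 1337 on the cordyceps array and 568 on the sunitinib array. Over 10 spots each, the signals lay between 1594 and 1706 (SD 43.3) with vehicle, between 1202 and 1407 (SD 64.1) with cordyceps and between 545 and 599 (SD 17.3) with sunitinib. The log2 ratio was -0.46 for sunitinib, past the software limit of 0.40, and -0.04 for cordyceps, within it. After scaling, the vehicle and cordyceps spots overlapped, and the sunitinib spots lay below both.

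By the software limit, 6 of the 10 genes were lower under sunitinib (CCND1, CCND2, CCND3, CDK4, CDK6 and RB1), 1 was higher (CDKN1C) and 3 lay within it. Of 12983 genes measured on both arrays, 21.9% were lower and 22.5% higher by the same limit. Under cordyceps, 2 of the 10 were higher (CCND1 and CDKN1C), 1 was lower (CDKN2C, with a dim cordyceps signal) and 7 lay within the limit. With no scaling CDKN1C also lay within it there, at 0.29. Of 13026 genes measured on both arrays, 15% were higher and 13.5% lower. Over all 14775 genes compared, which include those dim on 1 array such as CDKN2C, 2045 were higher and 1862 lower. All 6 genes that were lower under sunitinib stayed below 0 under each of the 12 alternatives that give a ratio.

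**Figure D3:**
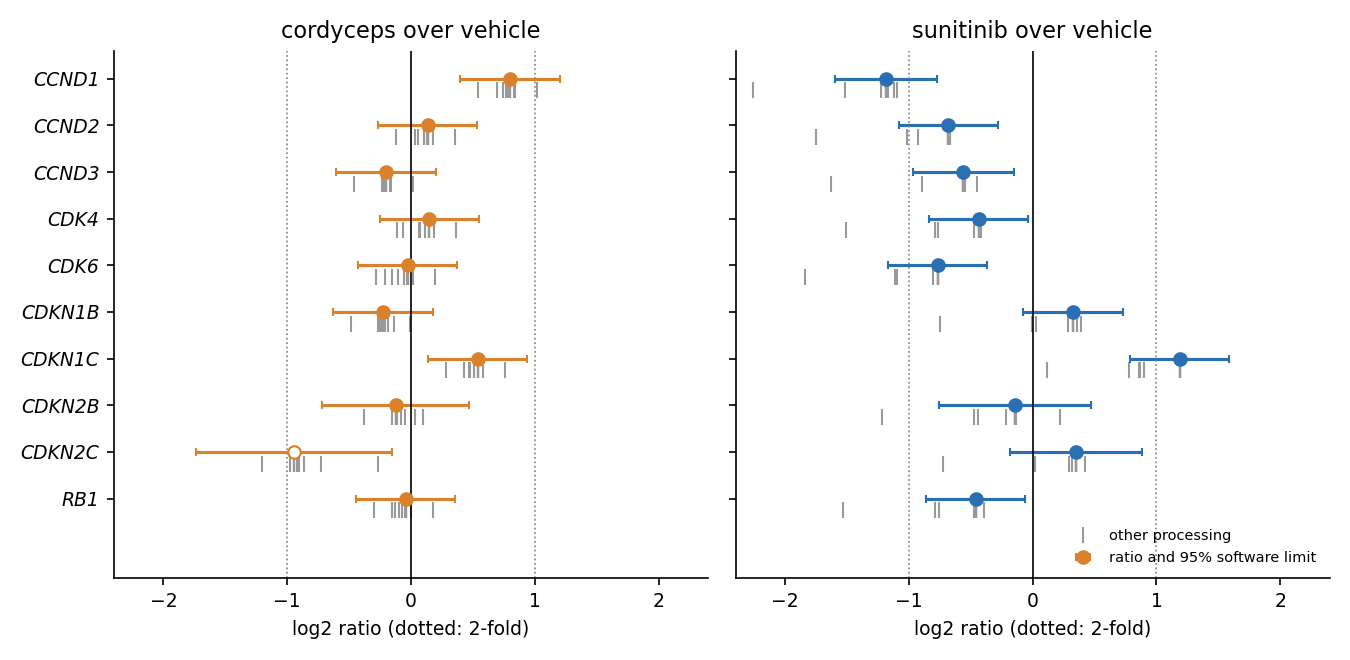
Log2 ratios of the 10 genes for cordyceps over vehicle (left) and sunitinib over vehicle (right). Points are the values reported with the 95% limit of the software error. The open point is CDKN2C, whose cordyceps signal was not well above background. Grey ticks are the same ratio under other processing, and dotted lines mark 2-fold. Under sunitinib CCND1 and CDKN1C lay past 2-fold on opposite sides, and the farthest tick to the left of each gene is the unscaled value.

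The ratios of all genes varied with brightness. The 20 bins of genes by brightness had median log2 ratios between -0.09 and 0.45 for sunitinib, the bin of brightest genes standing at 0.25. Less the median of the genes of like brightness, the 6 genes that were lower under sunitinib stood between -1.13 (CCND1) and -0.39 (RB1). RB1 then lay within its software limit of 0.40, and CDK4, at -0.42, was only just past its limit of 0.40.

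**Figure D4:**
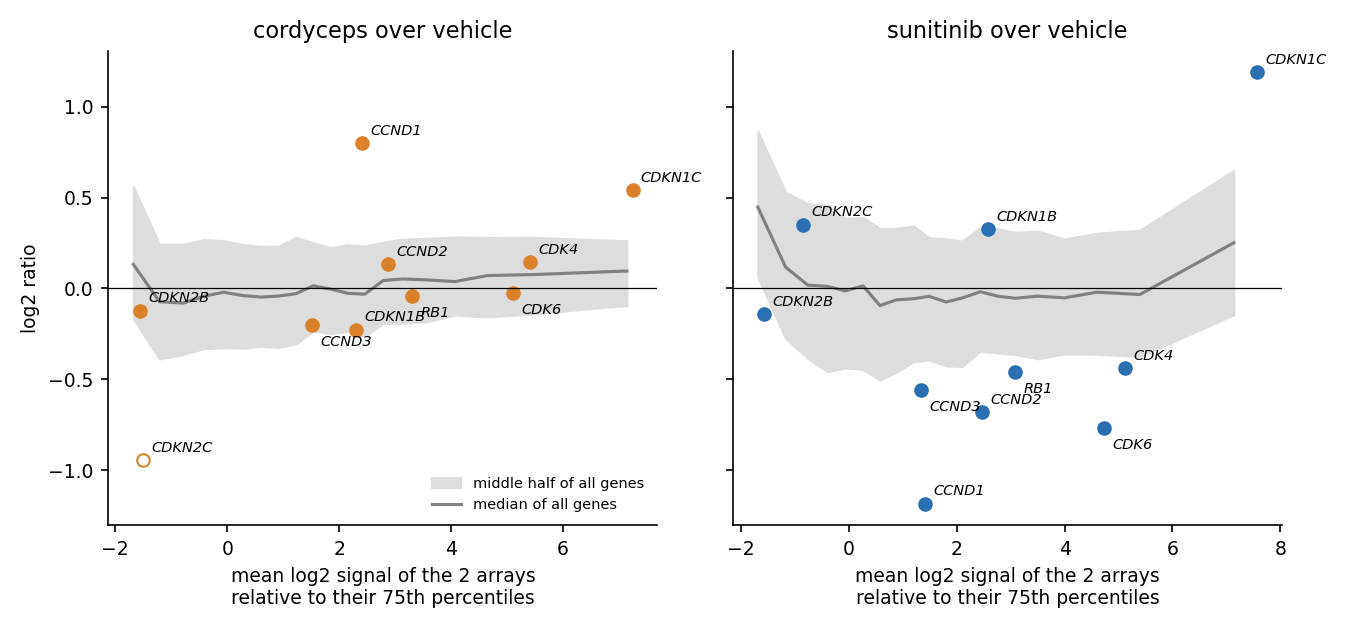
Log2 ratio (vertical axis) against the mean log2 signal of both arrays relative to their 75th percentiles. The grey line joins the medians of 20 brightness bins of all measured genes, and the band spans their quartiles. Points are the 10 genes, open where 1 of the arrays was not well above background. Under sunitinib, CCND1 at -1.19 and CDKN1C at 1.19 lay outside the band. CCND2, CCND3, CDK4, CDK6 and RB1 also lay below it there, and CDKN2B lay just below its edge. Under cordyceps, CCND1 and CDKN1C lay above the band and CDKN2C below it.

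Around the 10 genes, 8 lists of pathway genes were read on the same scale. Their 2-fold counts stand beside 6.52% lower and 6.44% higher of all genes compared under sunitinib. Under cordyceps these shares were 2.76% and 2.99%. A reported count of 0 or 1 in a list is close to what such shares give. With no scaling, 8009 of all 14894 genes compared were more than 2-fold lower under sunitinib. Genes for which the dimmer array gave no direction were counted at 0. The values are relative to all genes: with each array scaled to its median, the median of all measured genes was 0.23 for cordyceps and -0.33 for sunitinib, and with no scaling -0.24 and -1.08, and the measured values of every list move by the same step. Under sunitinib all 8 genes of the cyclin E and cyclin A kinases and their activators had a ratio below 0, with a median of -0.58. The 2 past 2-fold were CCNE2 and CCNA2, the cyclins of the G1/S transition and of S phase, at least 2.29-fold and 2.93-fold lower. That count was 0 with normexp background correction and where both arrays had to be well above background, and 8 with no scaling. CDK7, a subunit of the activating kinase, was the highest of the list at -0.17, and CCNE1 the lowest measured on both arrays at -0.58. Under cordyceps 0 of the 8 passed 2-fold and the median was 0.38, from -0.59 for CCNE2 to 0.96 for CCNA2, and with median scaling 2 of the 8 were more than 2-fold higher. The signal of CCNA2 was 113 with vehicle, 185 with cordyceps and 6.97, not well above background, with sunitinib.

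The other CDK inhibitors numbered 3, and 0 passed 2-fold in either comparison. CDKN1A, which encodes p21, gave signals of 139, 220 and 132 on the vehicle, cordyceps and sunitinib arrays. Its log2 ratio was 0.92 for cordyceps and 1.00 for sunitinib, the latter just under the limit. CDKN2D, which encodes p19, stood at 0.98 and 0.56, and CDKN2A at 0.31 and 0.08. All 3 were above 0 in both comparisons, with medians of 0.92 and 0.56, though with no scaling all 3 lay below 0 under sunitinib and with median scaling CDKN2A did. Other scalings also raised the counts, to 2 of 3 more than 2-fold higher under cordyceps with median scaling, and to 1 of 3 under sunitinib with quantile normalization or the percentile over detected probes.

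Among 12 genes of the RB family, E2F and DP factors, 4 were more than 2-fold lower under sunitinib and 0 higher, with a median of -0.75. E2F1 and E2F2, activating E2F factors, were at least 2.82-fold and 7.38-fold lower, and E2F7, a repressive E2F, was 2.84-fold lower. TFDP2, a partner of the E2F factors, stood at -1.18. RBL2, the p130 relative of RB1, was the highest at 0.57. The count of 4 ranged from 2 to 8 over the alternatives that keep the 2-fold limit. Under cordyceps 2 were more than 2-fold higher and 1 lower, with a median of -0.02. E2F7 stood at 1.25, with 1.23 on its second probe, and E2F2 at -1.45. The probe of TFDP2, at 3.45, lay in the bright streak of that array. With normexp 0 were lower, and without the streak 1 was higher. The signals of E2F7 were 1996 on the vehicle array, 3978 on the cordyceps array and 334 on the sunitinib array.

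Of 8 genes of the MuvB core and its partners, which repress cell cycle genes in resting cells and activate them later, 2 were more than 2-fold lower under sunitinib and the median was -0.19. These were MYBL2, at least 3.28-fold lower, and FOXM1 at -1.53, both activators of late cell cycle genes. That count was 0 with normexp, 1 where both arrays had to be well above background and 7 with no scaling. LIN37 was the highest at 0.73. Under cordyceps 0 of the 8 passed 2-fold, from -0.13 for MYBL2 to 0.91 for FOXM1, with a median of 0.23, and with median scaling 1 was more than 2-fold higher.

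Of 18 E2F target genes, 6 were more than 2-fold lower under sunitinib and 1 higher, with a median of -0.78. TK1, the thymidine kinase of S phase, had a signal of 11109 for vehicle, 11163 for cordyceps and 799 for sunitinib. Its log2 ratios were -2.72 for sunitinib and 0.26 for cordyceps. The others lower were MCM6 at -1.32 and MCM4 at -1.17, subunits of the replicative helicase, and CDK1, MKI67 and UHRF1. MKI67 and UHRF1 were at least 9.73-fold and 7.57-fold lower. CDK1 was 14.5-fold lower, with a dim sunitinib signal of 18.7 kept as measured. The second probe of UHRF1 (signals of 68.7 with vehicle and 3.85 with sunitinib) and the other 2 of MKI67 (265 and 6.18, 48.2 and 4.71) were also well above background on the vehicle array and not on the sunitinib array. The second probe of CDK1 was well above background on neither. CDC6 was at least 2.59-fold higher, from a signal of 14.3 to 22.4, close to the lowest well above background, and MCM2 was the highest measured at 0.70. Over the alternatives that keep the 2-fold limit, between 3 and 16 of the list were lower and between 0 and 1 higher. Under cordyceps 1 of 17 was more than 2-fold higher and 0 lower, with a median of 0.07. It was CDK1, the mitotic kinase, at 1.13, and POLA1 was lowest at -0.45. With normexp or no scaling 0 were higher.

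The genes that raise or remove D-type cyclins behaved unequally. Of 9 inducers compared, 3 were more than 2-fold lower under sunitinib and 1 higher. The median of 0 is the value given to ETS2 and KLF5, which had no direction. Their signals were 28.8 and 38.6 with vehicle, and 7.17 and 4.49, not well above background, with sunitinib. MYC stood at -1.54, JUN at -1.66 and FOSL1 at -2.37, all transcription factors that act on cyclin genes, and EGR1, an immediate early factor, at 1.87. The signal of MYC was 2067 with vehicle, 2867 with cordyceps and 337 with sunitinib. FOSL1 gave 977, 2477 and 89.7 on the same arrays. Under cordyceps FOSL1 was the only 1 of 9 past 2-fold, at 1.60, with STAT3 lowest at -0.05 and a median of 0.41. MYC and JUN stood at 0.73 and 0.98. With no scaling 0 inducers were more than 2-fold higher under sunitinib, while the count lower was 3 or 4 under every alternative that keeps the 2-fold limit.

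Of 13 genes for the turnover and folding of cyclin D, CDK4 and p27, 0 passed 2-fold under sunitinib, where the median was -0.01 and the values ran from -0.55 (CKS1B) to 0.44 (AMBRA1). With no scaling 8 of the 13 were more than 2-fold lower. Under cordyceps 1 passed, with a median of -0.12. It was CKS1B, a cofactor of the ligase that removes p27, at 1.27 and at 1.58 on its second probe, and GSK3B was lowest at -0.39. Of 11 FOXO and TGF-beta factors compared, 1 was more than 2-fold lower under sunitinib, TGFB2 at -1.42, a ligand of the TGF-beta family. FOXO1 was the highest at 0.90, and the median was 0.33. The count lower ranged from 1 to 4 over the alternatives that keep the 2-fold limit. Under cordyceps 0 of the 11 passed, from -0.49 for TGFBR2 to 0.35 for TGFB1, with a median of -0.15, and with no filter 1 was more than 2-fold lower.

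**Figure D5:**
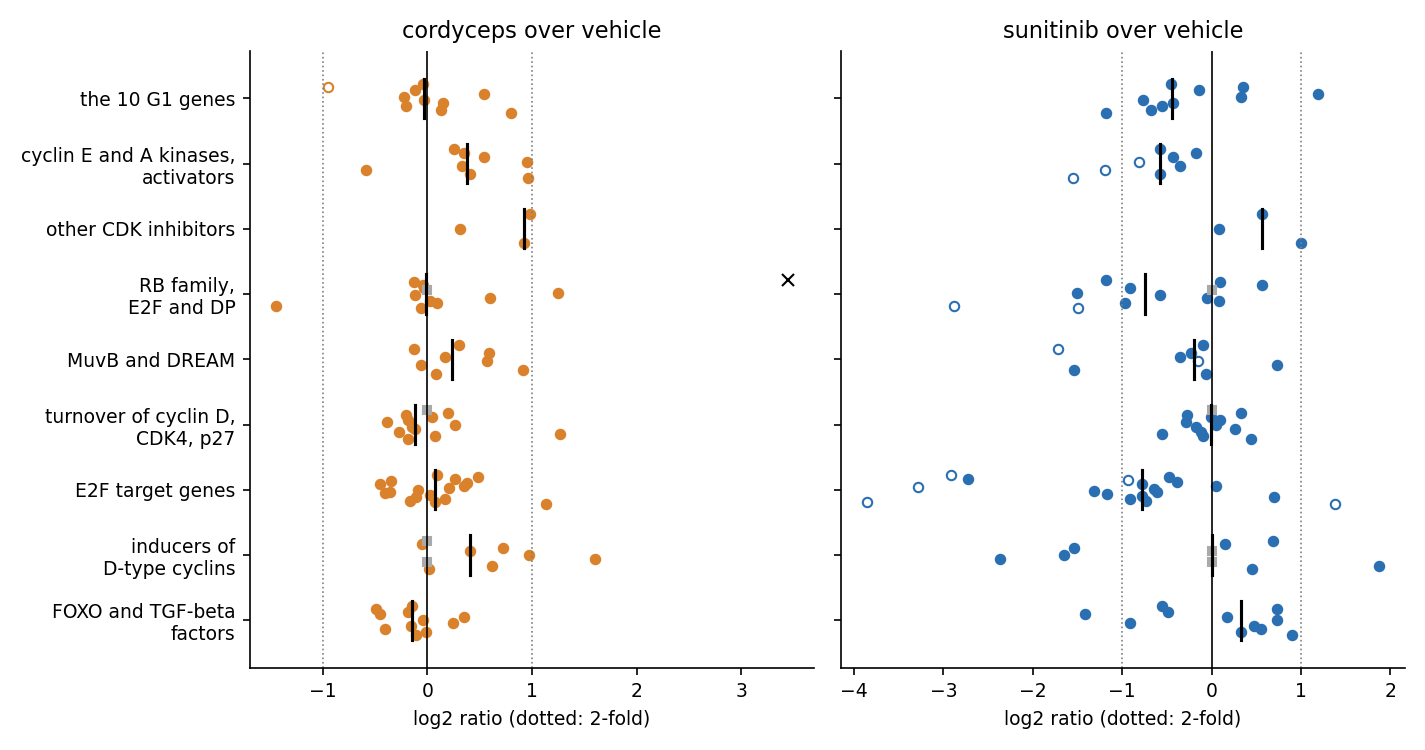
Log2 ratios of the 10 genes and of 8 pathway lists for cordyceps over vehicle (left) and sunitinib over vehicle (right), with dotted lines at 2-fold. Each point is a gene, open points are ratios marked as bounds, and grey squares are genes with no direction counted at 0. The cross is TFDP2, whose probe lay in the bright streak, and the black bar is the list's median. Under sunitinib the medians of the cyclin E and A list (-0.58), the E2F list (-0.75) and the E2F targets (-0.78) lay below 0, and that of the other CDK inhibitors (0.56) above it.

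Among the 12471 named genes well above background on all 3 arrays, the genes nearest to CDKN1C over both log2 ratios were SQSTM1, PGF and EFCAB12, at Euclidean distances of 0.02, 0.04 and 0.06. SQSTM1, a receptor of selective autophagy, gave signals of 10315, 12585 and 11012 on the vehicle, cordyceps and sunitinib arrays. The genes nearest to CCND1 were SSR3, MZT1 and PPP1R15A, at distances of 0.01, 0.04 and 0.05. SSR3, a subunit of the translocon-associated complex, gave 602, 882 and 125. Likeness over 2 ratios that share the vehicle array is a description of these 3 arrays only.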

How the data were processed

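Transcripts of TK-10 cells were measured on 1 Agilent single-colour array per condition, and all 3 arrays lay on 1 slide read in 1 scan. The deposited intensity values are the processed signals of Feature Extraction 11.5.1.1, background-subtracted by the authors' scanner software from a design on hg19, and the series table holds the same signals averaged per probe with no scaling between arrays. The study's methods describe another array type, from which only the 2-fold limit was taken. Groups came from the labels, which name no separate cultures.

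Control spots and outlier spots were dropped, the remaining spots of each probe were averaged, and the log2 signals were set relative to each array's 75th percentile over 58201 probes. A gene was represented by its brightest probe over the 3 arrays, and RefSeq accessions named 31104 probes. A gene was compared where either array of the pair held its probe well above background. A dim signal was raised to the lowest signal well above background on its array, or kept where higher, and the ratio is then marked as a bound. Where it was kept, as for CDKN2C under cordyceps and CDK1 under sunitinib, the value is the ratio of a dim spot. All 10 genes were named, and in each list the highest and lowest genes measured on both arrays and those past 2-fold, together with the 3 nearest genes of CDKN1C and CCND1. The members and lists were chosen with earlier results of these data known. In all, 12 alternatives were planned and 1, the running median over 501 genes, was added after seeing the data. The steps were tested on simulated data. The number of arrays limits the precision. Python 3.11.15, pandas 2.3.3, R 4.3.3 and limma 3.58.1 (for normexp with an offset of 50) were used, and quantile normalization was done in Python.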

Additional observations from a re-analysis of the deposited data

How the results depend on the processing

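No paired analysis was possible because each condition had 1 array and the labels carry no shared replicate numbers, and for the same reason no array could be left out. Of 239 ratios of the 10 genes under other processing, 192 moved by less than the software error and 47 moved more. The sign of 9 of the 20 reported ratios changed under at least 1 alternative, and all 9 lay within the software limit as reported. They were CCND2, CCND3, CDK4, CDK6, CDKN2B and RB1 for cordyceps, and CDKN1B, CDKN2B and CDKN2C for sunitinib. Not every changed value was close to 0. With the unscaled values, CDKN1B stood at -0.75 and CDKN2C at -0.72 for sunitinib, past limits of 0.40 and 0.53. CCND1 stayed more than 2-fold lower under sunitinib in all 12 alternatives that give a ratio (-2.26 to -1.10). CDKN1C was the 1 gene more than 2-fold higher, and that count was 0 with each array scaled to its median (0.86), with quantile normalization (0.87), with the unscaled series values (0.12), with normexp (0.78) and with the running median over genes of like brightness (0.90). The count of genes lower under sunitinib, 1 as reported, was 3 with median scaling (CCND1, CCND2 and CDK6) and 2 with normexp (CCND1 and CDK6). It was 7 with the unscaled values (CCND1, CCND2, CCND3, CDK4, CDK6, CDKN2B and RB1) and 6 with the software limit in place of 2-fold. Of all 14894 genes compared, 1933 were lower with median scaling, 842 with normexp, 8009 with the unscaled values and 3032 with the software limit. Under cordyceps, where 0 passed, 1 was higher with median scaling (CCND1) and 2 with the software limit. There 1 was lower with the unscaled values and 1 with the software limit, CDKN2C both times. Of all 14775 genes compared, 746 were higher with median scaling and 2045 with the software limit. Lower were 834 with the unscaled values and 1862 with the software limit.

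These scalings shift the whole distribution. The median log2 ratio of all measured genes was 0.23 (cordyceps) and -0.33 (sunitinib) with median scaling, -0.24 and -1.08 with no scaling, and -0.14 for sunitinib with normexp. The share of genes higher among those past 2-fold was 52% as reported for cordyceps, 77.0% with median scaling, 24.7% with no scaling and 62.7% with no filter. For sunitinib it was 49.7%, 21.3% with median scaling, 1.97% with no scaling, 27.9% with normexp and 80.5% with no filter. Over all alternatives to the processing that keep the 2-fold limit, between 192 and 1631 genes were higher and between 187 and 970 lower under cordyceps (442 and 408 as reported), and between 161 and 6239 higher and 750 and 8009 lower under sunitinib (959 and 971 as reported). Signals close to background limit the ratios of CDKN2B and CDKN2C.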
